A study of Mus musculus with 21 samples.

Results

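The collagen genes are described here in mouse mammary organoids, as the protein-coding genes whose GENCODE vM21 symbol is Col, a number, the letter a and a number, Col17a1 excepted. The rule found 43 genes of the 55536 in the count table. They were sorted by the structure of their proteins into 11 fibrillar, 9 basement membrane, 9 FACIT (fibril-associated), 6 beaded filament, 3 short-chain network and 5 transmembrane or other collagens. The rule uses no measured value, but the members were chosen with earlier results of these data known.

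Collagens are extracellular matrix proteins whose chains wind around each other into a helix, for which prolines are hydroxylated in the endoplasmic reticulum before secretion. Fibrillar collagens are cut by extracellular proteases and crosslinked into banded fibrils, which FACIT collagens decorate. Type IV collagen forms the sheet of the basement membrane on which mammary epithelium rests, type VII anchors that membrane to the stroma, and type VI forms beaded microfilaments beside it. In the mammary gland the interstitial types I and III are known mainly as products of stromal fibroblasts, and type IV and type VII chains also of epithelium.

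The organoids were grown from primary mammary cells labelled as mammary epithelia, and RNA was taken at day 0, 14 and 28 after activation of neuT, an oncogenic form of rat Erbb2, the gene of a receptor tyrosine kinase. The groups were Mre11 ATLD1/ATLD1 organoids (ATLD below) and wild type organoids (WT), with 3 libraries for each genotype and day. Mre11 encodes the nuclease of a complex that senses broken DNA, and ATLD1 is a hypomorphic allele. Both genotypes carried the neuT activation, and no culture without it was sampled at day 14 or 28, so that the effect of neuT and that of longer culture cannot be told apart. For every WT day the first replicate was also run in the sequencing batch of the ATLD libraries, which adds 3 libraries, 21 in all. The labels do not say how neuT was switched on or how many mice gave cells. Since the labels do not name separate animals or cultures, p-values measure the spread between these libraries, which may be technical.

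The ATLD libraries held 46331204 to 51757203 counts, the resequenced WT runs 46532851 to 48887808 and the original WT libraries 30905703 to 50879106. Mre11a averaged 14.8 ± 0.725 CPM (counts scaled to a library total of 1000000) in ATLD and 55.4 ± 2.75 CPM in WT organoids at day 0 (SD, n = 3 each), in the direction of the labels. Levels are CPM after TMM scaling, and changes are log2 fold changes ± SE of edgeR's quasi-likelihood test, with Benjamini-Hochberg adjusted p over all genes tested; "called" means an adjusted p under 0.05. Epithelial genes were high in every group: the summed basal markers stood at 2052 to 4166 CPM in ATLD and 2215 to 10059 CPM in WT libraries, and the luminal markers at 7106 to 17570 CPM in ATLD and 1185 to 4584 CPM in WT libraries. Bulk RNA cannot tell fewer cells of a type from less RNA per cell.

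A technical trend touched the collagens more than most genes. Their transcripts had a median GC content of 55.1%, against 49.3% over all genes tested, and 9 collagens lay at 60% or more. WT day 14 replicates 1 and 3 and WT day 28 replicate 2 were low in GC-rich genes: there the median log2 deviation of genes of 60% GC or more, minus that of genes under 45%, was -1.26, -1.21 and -0.98. WT day 0 replicate 1 had a difference of -0.68, and all other libraries lay between -0.23 and 0.83. In WT day 14 replicate 1 the resequenced run of the same culture gave at least 2-fold more CPM than the original run for 12 of the 39 collagens tested, among them 7 of the 9 with 60% GC or more, and at least 2-fold less for 0. Col9a3, for example, had 766 CPM in the resequenced run and 280 CPM in the original run. At day 28 the resequenced run was at least 2-fold higher for 0 collagens and at least 2-fold lower for 0, and at day 0 it was higher for 1. Across the 39 genes the log2 ratio of the runs went with GC content at day 14 (Pearson's r = 0.83, Spearman's rho = 0.85), a description of genes that share both libraries. Some counts and genes are given below with and without these 3 libraries. In the fits of change with time, and of its difference between genotypes, without them the resequenced run of WT day 14 replicate 1 was added. Those fits had no batch term, so WT day 14 then joined libraries of both sequencing batches. Their values therefore mix the effect of leaving libraries out with that of the batch. Values given once come from fits that include the 3 libraries, and some of those calls change without them.

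**Figure D1:**
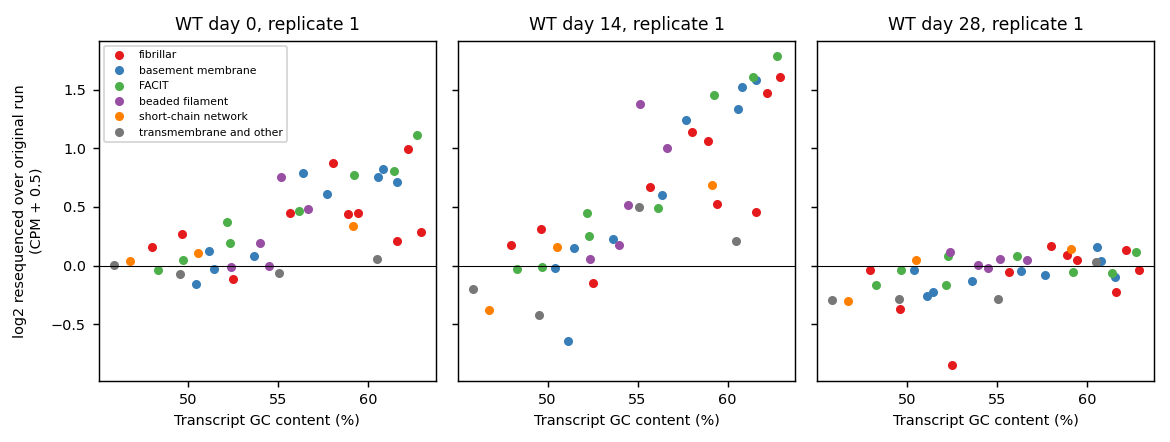
Each point is 1 of 39 collagen genes; the x axis is the GC content of its transcript in percent and the y axis the log2 ratio of the resequenced over the original run of the same WT culture, from CPM with 0.5 added. At day 14 the ratio is near 0 for genes of low GC content and up to 1.79 for Col9a2, and at day 28 the ratios are smaller (Pearson's r = 0.46), with no gene past 2-fold.

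No collagen was without a count in all 21 libraries, but several were close to silent. Col19a1 had 2 counts in 2 libraries, Col13a1 16 counts, Col6a5 20 and Col24a1 60 over the 21 libraries. These 4 genes did not pass the filter on low counts, and the remaining 39 were tested. Col3a1, the chain of type III collagen, passed it with 76 counts in all, seen in 10 libraries. Its values, singled out after they were seen, were 0 CPM in all ATLD day 0 libraries and at most 0.072 CPM in the other ATLD libraries, against 0 to 0.618 CPM in the original WT libraries. In WT day 28 replicate 1 the original run gave 0.511 CPM and the resequenced run of the same culture 0.0613 CPM. The lung surfactant gene Sftpc averaged 0.0734, 0.0372 and 0.119 CPM in ATLD organoids at days 0, 14 and 28, against 0.516, 0.181 and 0.184 CPM in the resequenced WT runs and 6.62, 5.09 and 7.94 CPM in the original WT libraries. The sum of 6 lung markers was 7.0003 to 16.8 CPM in the original WT libraries, with Sftpc the highest. It was lower in the resequenced WT runs, at 3.07, 0.301 and 0.306 CPM. In ATLD libraries, of the same batch as those runs, it was 6.37 to 17.2 CPM, mostly Sftpd. The part of these genes in the Col3a1 counts was not tested.

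The highest collagens per kilobase of gene length were neither type I nor type III. In WT day 28 organoids Col9a3 stood at 154 CPM per kb, Col4a5 at 69.7, Col18a1 at 53.8, Col4a6 at 46.8, Col7a1 at 28.5, Col11a1 at 27.3 and Col14a1 at 25.6 CPM per kb. In ATLD day 28 organoids the same genes stood at 43.2, 29.3, 13.0, 15.1, 1.35, 14.9 and 0.555 CPM per kb, in that order. Col1a1 and Col1a2, which encode the chains of type I collagen, reached at most 0.370 and 0.376 CPM per kb in the mean of any group. The family as a whole held 0.0929% to 0.129% of the counts in the ATLD group means and 0.255% to 0.328% in the WT group means. The lowest WT mean, of day 14, joined 0.208% and 0.212% in replicates 1 and 3, low in GC-rich genes, and 0.345% in replicate 2. The resequenced run of WT day 14 replicate 1 had 0.344%.

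**Figure D2:**
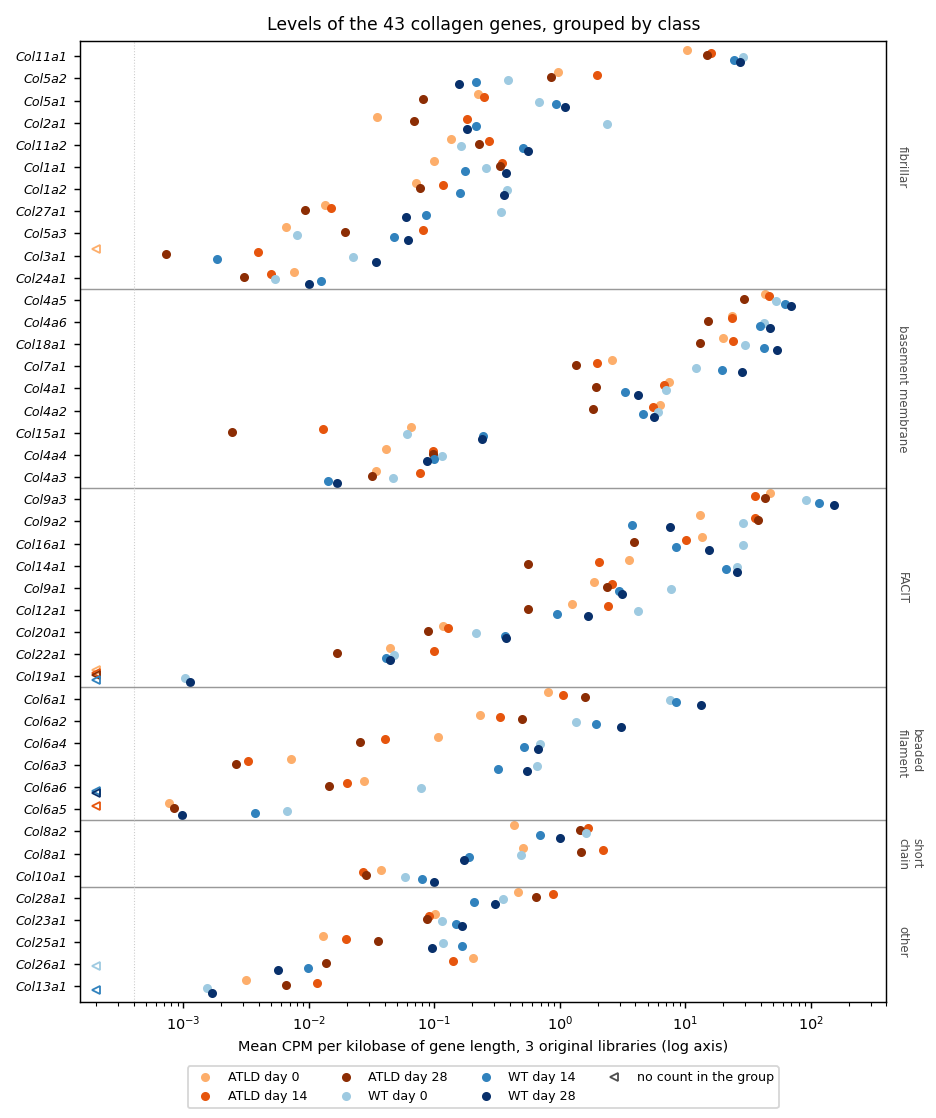
Each row is 1 of the 43 collagen genes, sorted by class; the x axis is the mean CPM per kilobase over the 3 original libraries of a group on a log axis, and a colour marks the group. Open triangles at the left edge stand for groups with no count. Levels span several orders of magnitude, with Col9a3, Col4a5, Col4a6 and Col18a1 at the top and Col19a1, Col6a5 and Col13a1 at the bottom.

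By summed CPM per kb, FACIT and basement membrane collagens made up nearly the whole family in both genotypes. Basement membrane collagens took 51.4% ± 2.15, 48.0% ± 5.43 and 35.3% ± 5.63 of the collagen sum at days 0, 14 and 28 in ATLD, and 39.3% ± 1.38, 48.0% ± 3.77 and 45.3% ± 2.62 in WT organoids (SD, n = 3 each). FACIT collagens took 40.6% to 51.9% in the group means of both genotypes and fibrillar collagens 5.98% to 9.34%. Beaded filament collagens took 0.607%, 0.648% and 1.21% in ATLD against 2.70%, 3.09% and 3.74% in WT organoids at the same days. Short-chain network collagens took 0.482%, 1.76% and 1.72% in ATLD against 0.562%, 0.273% and 0.274% in WT organoids. The share of the short-chain class thus stood higher in every ATLD library of days 14 and 28 (1.56% to 2.002%) than in any WT library of those days (0.225% to 0.305%). Within WT day 14, basement membrane collagens took 50.5% and 49.9% in replicates 1 and 3, which are low in GC-rich genes. They took 43.7% in replicate 2 and 44.4% in the resequenced run of replicate 1. FACIT collagens took 36.7% and 37.6% in replicates 1 and 3, 47.5% in replicate 2 and 45.9% in the resequenced run.

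Between genotypes the collagens were mostly lower in ATLD organoids. These fits took each resequenced WT run as a further library of its group, though it shares its culture with an original run. With culture as a random block limma voom called 27, 28 and 33 collagens at days 0, 14 and 28. At day 0, 3 of the 39 were higher and 23 lower in ATLD than in WT, where 26.1% of all genes were called higher and 29.5% lower, 55.6% in either direction. At day 14, 9 were higher and 18 lower, where 30.1% of all genes were called higher and 35.0% lower, 65.1% in all. At day 28, 6 were higher and 26 lower, where 29.3% of all genes were called higher and 34.9% lower, 64.2% in all. The total shares of collagens called, 66.7%, 69.2% and 82.1%, were near the background at days 0 and 14, and the lower calls stood above it on each day. The median log2 difference was -1.44, -0.73 and -1.65 over the collagens and -0.04, -0.07 and -0.05 over all genes. At day 14 the 18 original libraries without a batch term gave 12 higher and 15 lower, and a fit without WT day 14 replicates 1 and 3 and WT day 28 replicate 2, chosen after seeing the data, gave 9 higher and 22 lower.

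The change with time was counted within each genotype. In WT organoids 5 collagens rose and 15 fell by day 14, where 15.2% of all genes rose and 15.1% fell, 30.3% in all; the median was -0.29 over the collagens and 0.01 over all genes. With an offset for GC content in the fit 7 rose and 15 fell. With the resequenced runs in place of WT replicate 1 the counts were 4 and 14, and with all 21 libraries and a batch term 6 and 16. Without the 3 libraries low in GC-rich genes, and with the resequenced day 14 run added, 12 rose and 11 fell. By day 28 in WT organoids 7 rose and 9 fell, where 12.3% of all genes rose and 12.4% fell, 24.7% in all, and without the same libraries 10 rose and 9 fell. Between days 28 and 14 in WT organoids edgeR called 0 collagens and DESeq2 0, where 0.905% of all genes were called, with 10 at an unadjusted p under 0.05; without WT day 14 replicate 2 edgeR called 8. In ATLD organoids 10 collagens rose and 2 fell by day 14, where 5.18% of all genes rose and 6.49% fell, 11.7% in all. By day 28 in ATLD organoids 8 rose and 8 fell, where 14.1% of all genes rose and 15.7% fell, 29.8% in all. Between days 28 and 14 in ATLD organoids 0 rose and 11 fell, where 8.25% of all genes rose and 9.05% fell, 17.3% in all.

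The difference between the genotypes in the change with time was tested directly. By day 14 the ATLD change exceeded the WT change for 13 collagens and lay below it for 3, where 10.8% and 10.6% of all genes did so, 21.3% in all; without the 3 libraries low in GC-rich genes the counts were 13 and 6. By day 28 it exceeded it for 9 and lay below it for 8, where 13.5% and 14.0% of all genes did so, 27.5% in all, and without the 3 libraries low in GC-rich genes for 9 and 14. All these comparisons share the day 0 libraries. Of 193 calls over the 11 comparisons, 51 were lost when 1 library was left out, and 0 changed sign in any alternative.

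**Figure D3:**
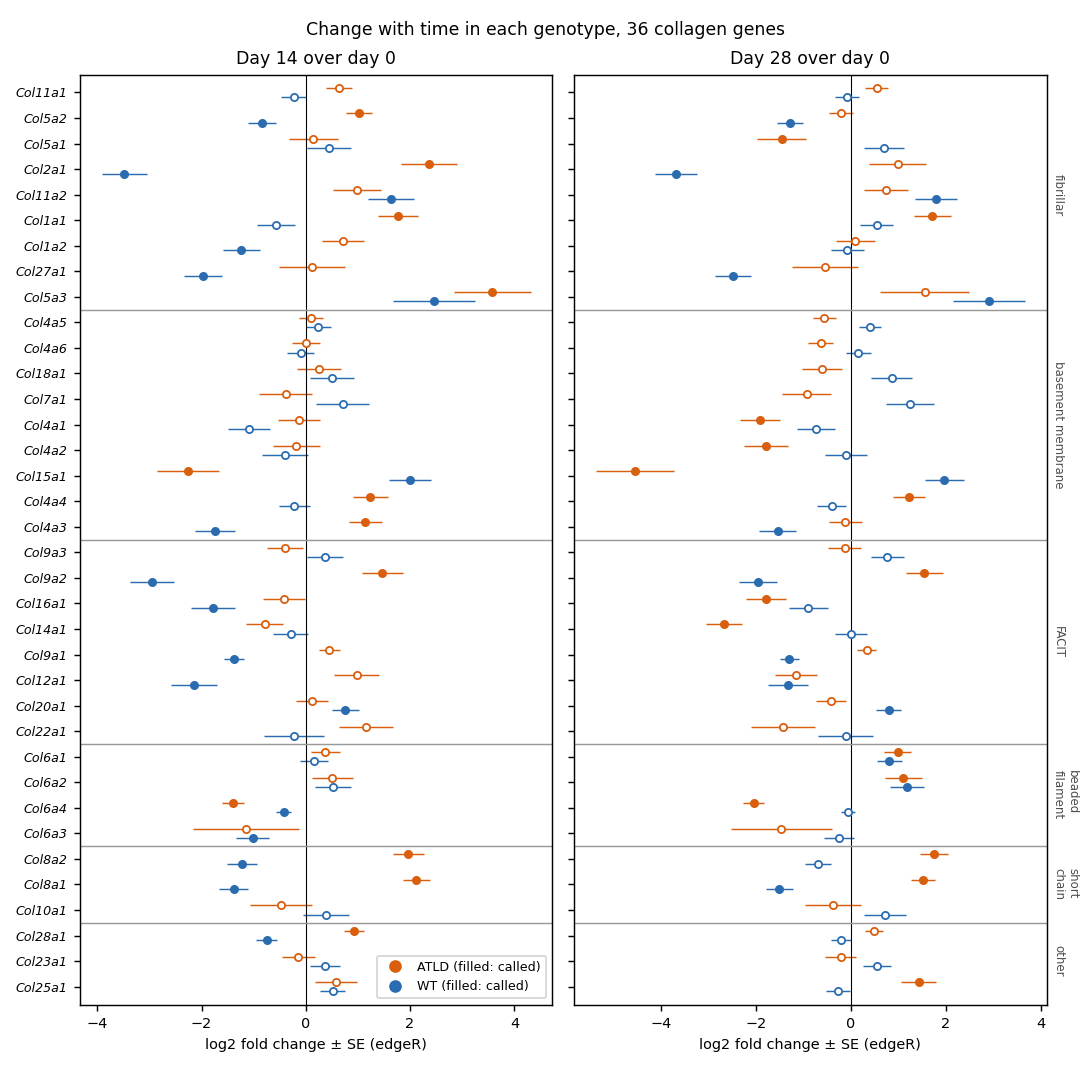
Points are log2 fold changes of day 14 (left) and day 28 (right) over day 0 with SE bars, for ATLD in orange above WT in blue, and filled points were called; Col3a1, Col6a6 and Col26a1 are left out because a group had no count. Col2a1, Col5a2, Col9a2, Col8a1, Col8a2 and Col4a3 lie right of 0 in ATLD and left of 0 in WT at day 14, and Col15a1 lies the other way on both days.

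Among fibrillar collagens, 1 was higher and 6 lower in ATLD than in WT organoids at days 0 and 28, and 1 higher and 4 lower at day 14, of 10 tested. Over all genes, 26.1% to 30.1% were called higher and 29.5% to 35.0% lower between genotypes, which is the background of this and the following class counts. The main fibrillar transcript by level was Col11a1 (chr3:114030540-114220718, mm10), a chain of type XI collagen that is known to set fibril diameter; it was singled out after its values were seen. ATLD libraries had 183, 111 and 99.9 CPM of Col11a1 at day 0, 248, 179 and 182 CPM at day 14, and 140, 144 and 287 CPM at day 28. WT libraries had 339, 375 and 390 CPM at day 0, 309, 323 and 307 CPM at day 14, and 368, 323 and 352 CPM at day 28. On each day all ATLD libraries lay below all WT libraries. The log2 difference at days 0, 14 and 28 was -1.56 ± 0.26, -0.73 ± 0.26 and -0.94 ± 0.26, with adjusted p of 6.6e-05, 0.019 and 0.0037. The call at day 14 was lost without WT day 14 replicate 1, ATLD day 14 replicate 2 or ATLD day 14 replicate 3, at log2 differences of -0.67, -0.64 and -0.65.

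Col2a1 (chr15:97975602-98004695), the chain of type II collagen of cartilage, had the largest fibrillar difference in course. ATLD libraries had 0.516, 0.271 and 0.176 CPM at day 0, 1.37, 1.51 and 2.16 CPM at day 14, and 0.455, 0.616 and 0.847 CPM at day 28. WT libraries had 14.3, 23.4 and 27.5 CPM at day 0, 0.861, 3.82 and 1.22 CPM at day 14, and 1.83, 1.31 and 1.88 CPM at day 28. The genotypes were thus far apart at day 0 and separate, at a smaller distance, at day 28. At day 14 they overlapped through WT replicates 1 and 3, which are low in GC-rich genes. WT day 14 replicate 2 and the resequenced run of replicate 1, at 3.27 CPM, lay above all ATLD day 14 libraries. The day 14 difference of ATLD to WT was -0.77 and not called (adjusted p = 0.13). Without the 3 libraries low in GC-rich genes it was -1.11 (adjusted p = 0.0042). In ATLD organoids Col2a1 rose by 2.37 ± 0.54 at day 14 (adjusted p = 0.0064), while in WT organoids it changed by -3.48 ± 0.43 (adjusted p = 6.5e-06) and by -3.69 ± 0.44 at day 28 (adjusted p = 4.9e-06). The changes differed between genotypes by 5.85 ± 0.68 at day 14 and 4.67 ± 0.72 at day 28. Without the 3 libraries low in GC-rich genes the WT change of Col2a1 by day 14 was -2.66 and the difference 5.05, both still called. At day 0 the difference between ATLD and WT was -6.53 ± 0.52 (adjusted p = 1.6e-08).

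Col5a2 (chr1:45374321-45503282), a chain of type V collagen, which nucleates type I fibrils, was the fibrillar gene higher in ATLD organoids on all days. ATLD libraries had 13.3, 8.26 and 6.36 CPM at day 0, 24.1, 16.7 and 16.1 CPM at day 14, and 6.30, 8.92 and 8.98 CPM at day 28. WT libraries had 3.21, 4.09 and 3.71 CPM at day 0, 2.25, 2.26 and 1.60 CPM at day 14, and 1.81, 1.04 and 1.63 CPM at day 28. All ATLD libraries lay above all WT libraries. The log2 difference was 1.19 ± 0.29, 2.95 ± 0.30 and 2.35 ± 0.31 at days 0, 14 and 28, with adjusted p of 0.0023, 1.0e-07 and 3.1e-06. The day 0 call was lost without WT day 0 replicate 1, at 1.06. Its partner Col5a1 went the other way. Col5a1 had 3.25, 1.89 and 0.528 CPM in ATLD libraries at day 0, 3.13, 1.40 and 1.75 CPM at day 14, and 0.432, 0.722 and 0.917 CPM at day 28. In WT libraries Col5a1 had 4.63, 6.47 and 6.22 CPM at day 0, 5.92, 11.2 and 6.38 CPM at day 14, and 10.9, 6.36 and 10.7 CPM at day 28. For Col5a1 every ATLD library lay below all WT libraries on each day. The log2 difference of Col5a1 was -2.22 ± 0.46, -2.56 ± 0.45 and -4.32 ± 0.51, called on each day.

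Type I collagen was expressed at a low level throughout. Col1a1 had 1.08, 0.496 and 0.396 CPM in ATLD libraries at day 0, 2.02, 1.87 and 2.88 CPM at day 14, and 2.25, 1.66 and 2.59 CPM at day 28. In WT libraries Col1a1 had 1.38, 1.88 and 1.80 CPM at day 0, 0.990, 1.72 and 0.716 CPM at day 14, and 2.90, 1.45 and 2.93 CPM at day 28. Each ATLD library of Col1a1 lay below all WT libraries at day 0, and the genotypes overlapped at day 28. At day 14 they lay above the original WT libraries, but the resequenced WT run had 2.61 CPM, within their range, and the difference with the batch term was 0.18 ± 0.37 (adjusted p = 0.68), not called. Without the batch term it was 0.99 (adjusted p = 0.021). Col1a1 rose in ATLD organoids by 1.77 ± 0.38 at day 14 and 1.71 ± 0.38 at day 28 (adjusted p = 0.0044 and 0.0026), and its change by day 14 differed from that in WT by 2.34 ± 0.53 (adjusted p = 0.0034), or by 1.47 without the 3 libraries low in GC-rich genes (adjusted p = 0.016). Col1a2 had 1.51, 0.835 and 0.308 CPM in ATLD libraries at day 0, 1.60, 1.40 and 1.37 CPM at day 14, and 0.728, 0.616 and 1.51 CPM at day 28. In WT libraries Col1a2 had 3.77, 4.47 and 5.76 CPM at day 0, 1.72, 2.36 and 1.87 CPM at day 14, and 5.27, 3.48 and 4.52 CPM at day 28. ATLD values of Col1a2 all lay below all WT libraries on each day, though the day 14 difference of -0.85 was not called (adjusted p = 0.055). Both chains of type I collagen averaged at most 4.67 CPM in any group. Col27a1 is a fibrillar collagen of cartilage and skin. Col27a1 had 0.301, 0.180 and 0.0440 CPM in ATLD libraries at day 0, 0.133, 0.113 and 0.336 CPM at day 14, and 0.159, 0.0425 and 0.165 CPM at day 28. In WT libraries Col27a1 had 3.86, 4.47 and 4.83 CPM at day 0, 0.880, 1.67 and 0.821 CPM at day 14, and 1.07, 0.438 and 0.802 CPM at day 28. The ATLD libraries of Col27a1 lay below all WT libraries on each day. Its change with time in WT was -1.97 ± 0.36 at day 14 and -2.49 ± 0.38 at day 28, both called. Col5a3, the third chain of type V, was low. Col5a3 had 0.0215, 0.0902 and 0.0220 CPM in ATLD libraries at day 0, 0.732, 0.383 and 0.552 CPM at day 14, and 0.0683, 0.234 and 0.0941 CPM at day 28. In WT libraries Col5a3 had 0, 0.0588 and 0.106 CPM at day 0, 0.128, 0.566 and 0.274 CPM at day 14, and 0.395, 0.219 and 0.633 CPM at day 28. The genotypes overlapped on each day for Col5a3.

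Fibroblast markers other than collagens were also lower in sum in ATLD organoids. The sum of 15 such markers was 20.96 to 38.8 CPM in ATLD libraries and 41.02 to 68.6 CPM in original WT libraries. The single markers did not share 1 direction: of 8 tested, 0 were higher and 5 lower in ATLD at day 0, 2 and 3 at day 14, and 0 and 4 at day 28. Fbln1 averaged 21.2, 5.01 and 6.41 CPM in ATLD at days 0, 14 and 28 and 12.2, 30.02 and 33.7 CPM in WT organoids. Pdgfra averaged 10.2, 15.97 and 17.4 CPM in ATLD and 35.7, 10.4 and 17.97 CPM in WT organoids. Dcn averaged 0.938 to 2.22 CPM in ATLD groups and 4.22 to 5.53 CPM in WT groups, and Thy1 0.233 CPM in ATLD and 0.0295 CPM in WT organoids at day 28. Twist2 was at 0 in every library, and Pi16, Tcf21 and Lum were at 0 in the ATLD libraries, while Lum averaged 0.0169 to 0.135 CPM in WT groups. Tcf21 was also at 0 in the resequenced WT runs of days 0, 14 and 28, and Lum in that of day 0. The part of other cells in the fibrillar results was not tested.

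Of 9 basement membrane collagens, 0 were higher and 3 lower in ATLD than in WT organoids at day 0, 1 and 4 at day 14, and 1 and 7 at day 28, where 29.3% of all genes were higher and 34.9% lower. With time 2 rose and 1 fell by day 14 and 1 rose and 3 fell by day 28 in ATLD organoids, and 1 rose and 1 fell by either day in WT organoids. In ATLD organoids 5.18% of all genes rose and 6.49% fell by day 14, and 14.1% rose and 15.7% fell by day 28. The 22.2% of the class called in WT organoids on either day was not above the share of all genes, 30.3% by day 14 and 24.7% by day 28. The 6 type IV genes lie in head-to-head pairs that are read outward from a shared region. The starts of Col4a1 (chr8:11198423-11312826) and Col4a2 (chr8:11312805-11449287) overlap by 22 bases of exon on opposite strands, those of Col4a3 and Col4a4 on chromosome 1 lie 72 bases apart, and those of Col4a5 and Col4a6 on chromosome X 1309 bases apart.

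The promoter windows of the Col4a1 and Col4a2 pair and the Col4a5 and Col4a6 pair are shown because these are the type IV genes of the highest level. They run from 250 bases before to 50 after the RefSeq start (GRCm38.p6), 5′ to 3′ on the strand of the gene. Capitals mark the letters GGGCGG (GC box) and CCAAT on either strand; TATAAA was found in none of the 4. The windows are Col4a1 (chr8:11312777-11313076, minus strand), Col4a2 (chr8:11312555-11312854, plus strand), Col4a5 (chrX:141475169-141475468, plus strand) and Col4a6 (chrX:141474027-141474326, minus strand).
Col4a1: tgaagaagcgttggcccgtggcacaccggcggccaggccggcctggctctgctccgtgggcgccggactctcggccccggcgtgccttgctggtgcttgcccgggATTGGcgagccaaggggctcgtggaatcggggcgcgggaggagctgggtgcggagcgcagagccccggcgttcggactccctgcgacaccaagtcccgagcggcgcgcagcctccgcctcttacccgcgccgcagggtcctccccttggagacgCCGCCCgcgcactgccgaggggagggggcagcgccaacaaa
Col4a2: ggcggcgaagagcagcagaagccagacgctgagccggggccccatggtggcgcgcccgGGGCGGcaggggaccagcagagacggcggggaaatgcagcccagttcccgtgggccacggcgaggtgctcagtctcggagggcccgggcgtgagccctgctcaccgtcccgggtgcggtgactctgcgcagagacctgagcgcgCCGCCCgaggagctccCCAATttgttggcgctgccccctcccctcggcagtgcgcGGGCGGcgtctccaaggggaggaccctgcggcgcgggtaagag
Col4a5: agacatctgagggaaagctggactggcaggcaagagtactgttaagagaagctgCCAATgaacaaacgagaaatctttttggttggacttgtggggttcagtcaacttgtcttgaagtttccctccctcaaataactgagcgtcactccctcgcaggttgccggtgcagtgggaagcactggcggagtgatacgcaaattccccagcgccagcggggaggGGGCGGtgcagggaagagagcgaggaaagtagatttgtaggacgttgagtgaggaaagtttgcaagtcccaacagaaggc
Col4a6: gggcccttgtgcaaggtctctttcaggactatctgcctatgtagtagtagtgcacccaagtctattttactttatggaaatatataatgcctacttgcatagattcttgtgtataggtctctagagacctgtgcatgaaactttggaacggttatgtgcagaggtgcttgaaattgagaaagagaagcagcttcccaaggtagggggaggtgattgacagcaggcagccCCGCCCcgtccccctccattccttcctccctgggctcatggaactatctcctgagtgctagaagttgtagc
The Col4a1 and Col4a2 windows share 78 bases and have a GC content of 74.0% and 73.7%, against a median of 52.7% over all promoters; those of Col4a5 and Col4a6 share none and have 52.7% and 48.3%. Of the 43 collagens, 34 had a window in the RefSeq table. GGGCGG occurred in 22 of these 34 genes and in 35.7% of all 32851 windows, CCAAT in 12 of 34 and in 37.4%, and TATAAA in 4 of 34 and in 13.6%; a match is a run of letters, not a site.

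Col4a1 and Col4a2, the chains of the common type IV network, fell together late in ATLD organoids. ATLD libraries had 87.2, 45.7 and 31.3 CPM of Col4a1 at day 0, 66.3, 42.1 and 41.5 CPM at day 14, and 10.2, 9.998 and 23.6 CPM at day 28. WT libraries had 43.7, 56.4 and 56.4 CPM at day 0, 17.9, 37.6 and 18.2 CPM at day 14, and 39.2, 19.4 and 35.1 CPM at day 28. The ATLD day 28 libraries lay below all ATLD libraries of the earlier days. In ATLD organoids Col4a1 changed by -1.91 ± 0.42 by day 28 (adjusted p = 0.0023) and Col4a2 by -1.79 ± 0.46 (adjusted p = 0.0074). Without ATLD day 0 replicate 1 the Col4a2 change was -1.24 and no longer called. Col4a2 had 68.1, 37.1 and 19.9 CPM in ATLD libraries at day 0, 52.4, 26.4 and 31.6 CPM at day 14, and 8.601, 8.36 and 19.3 CPM at day 28. In WT libraries Col4a2 had 32.2, 45.3 and 42.999 CPM at day 0, 21.6, 48.1 and 21.6 CPM at day 14, and 45.1, 21.6 and 45.5 CPM at day 28. For Col4a2 every ATLD library lay below all WT libraries at day 28 and the genotypes overlapped at days 0 and 14. No change of Col4a2 was called in WT organoids, where WT day 14 replicates 1 and 3 had less than replicate 2. At day 28 the log2 difference of ATLD to WT was -1.52 ± 0.44 for Col4a1 and -2.18 ± 0.48 for Col4a2.

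The ratio within a pair was compared next. Per kb, Col4a1 stood at 1.05 to 1.41 times Col4a2 in ATLD libraries, and in WT libraries at 1.10 to 1.20 times at day 0 and 0.685 to 0.798 times at days 14 and 28. Col4a5 stood at 1.74 to 2.15 times Col4a6 in ATLD libraries and 1.25 to 1.63 times in WT libraries. The ranges of the genotypes did not overlap for Col4a5 and Col4a6. Col4a5 and Col4a6, chains of a further type IV network found beneath several epithelia and smooth muscle, were the highest type IV genes. Col4a5 had 385, 256 and 228 CPM in ATLD libraries at day 0, 387, 294 and 246 CPM at day 14, and 138, 163 and 289 CPM at day 28. In WT libraries Col4a5 had 341, 357 and 371 CPM at day 0, 411, 443 and 409 CPM at day 14, and 503, 433 and 469 CPM at day 28. Each ATLD library of Col4a5 lay below all WT libraries at days 14 and 28 and the genotypes overlapped at day 0; the day 14 difference of -0.45 was not called (adjusted p = 0.11). Col4a6 averaged 188 ± 65.6, 189 ± 49.6 and 121 ± 55.8 CPM in ATLD and 335 ± 16.0, 313 ± 16.9 and 373 ± 37.0 CPM in WT organoids. At day 28 both were lower in ATLD, Col4a5 by a log2 difference of -1.20 ± 0.25 and Col4a6 of -1.65 ± 0.28 (adjusted p = 0.00038 and 5.8e-05).

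Col4a3 and Col4a4, chains of the network of the kidney and lung, were low but moved. Col4a3 had 0.473, 0.248 and 0.308 CPM in ATLD libraries at day 0, 0.865, 0.608 and 0.816 CPM at day 14, and 0.296, 0.234 and 0.423 CPM at day 28. In WT libraries Col4a3 had 0.542, 0.412 and 0.445 CPM at day 0, 0.128, 0.189 and 0.105 CPM at day 14, and 0.139, 0.274 and 0.0844 CPM at day 28. ATLD values of Col4a3 all lay above all WT libraries at day 14 and the genotypes overlapped at days 0 and 28. In WT organoids its change was -1.74 ± 0.38 at day 14 and -1.54 ± 0.38 at day 28 (adjusted p = 0.0020 and 0.0058), and its change by day 14 differed between genotypes by 2.88 ± 0.49 (adjusted p = 0.00029). Col4a4 had 0.559, 0.406 and 0.352 CPM in ATLD libraries at day 0, 1.46, 0.968 and 0.672 CPM at day 14, and 0.569, 1.08 and 1.43 CPM at day 28. In WT libraries Col4a4 had 1.13, 1.118 and 1.42 CPM at day 0, 0.935, 1.014 and 1.20 CPM at day 14, and 0.859, 1.123 and 0.802 CPM at day 28. The ATLD libraries of Col4a4 lay below all WT libraries at day 0 and the genotypes overlapped at days 14 and 28. Its rise in ATLD by day 28 was 1.22 ± 0.33 (adjusted p = 0.011) and was lost without ATLD day 28 replicate 3, at 0.91. An antisense transcript, C430014B12Rik, overlaps 5.65% of the Col4a3 exon bases, and the strand setting of the counting is not given.

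Col7a1 (chr9:108953586-108984875) forms the anchoring fibrils. ATLD libraries had 42.8, 25.3 and 11.6 CPM at day 0, 27.5, 11.2 and 22.2 CPM at day 14, and 9.40, 10.2 and 22.1 CPM at day 28. WT libraries had 101, 133 and 139 CPM at day 0, 121, 364 and 123 CPM at day 14, and 347, 160 and 372 CPM at day 28. Every ATLD library lay below every WT library. The log2 difference was -2.69 ± 0.55, -3.90 ± 0.56 and -4.80 ± 0.59 at days 0, 14 and 28, with adjusted p of 0.00047, 8.2e-06 and 1.3e-06. In WT organoids the change by day 14 was 0.71 ± 0.50 and not called, and without the 3 libraries low in GC-rich genes it was 1.51 ± 0.41 (adjusted p = 0.0079). Col18a1, whose fragment is endostatin and which was singled out after its values were seen, went the same way: 0.50 ± 0.42 by day 14 in WT organoids with all libraries and 1.29 ± 0.31 without the 3 (adjusted p = 0.0036).

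Col15a1 (chr4:47208161-47313167), a proteoglycan collagen that links basement membrane to fibrils, was low and went opposite ways. ATLD libraries had 0.473, 0.586 and 0.176 CPM at day 0, 0.155, 0.0450 and 0.0480 CPM at day 14, and 0.0228, 0 and 0.0235 CPM at day 28. WT libraries had 0.250, 0.353 and 0.550 CPM at day 0, 1.23, 2.29 and 1.16 CPM at day 14, and 1.83, 1.15 and 1.54 CPM at day 28. The genotypes overlapped at day 0 and were separate on both later days. In WT organoids Col15a1 rose by 1.99 ± 0.40 and 1.96 ± 0.40, and in ATLD organoids the change was -4.54 ± 0.83 by day 28 (adjusted p = 0.00093, 0.0013 and 0.00048). The changes of the genotypes differed by -4.25 ± 0.71 at day 14 and -6.50 ± 0.90 at day 28. The size of the day 28 values rests on very few counts, since the ATLD libraries then had 0 to 0.0235 CPM.

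**Figure D4:**
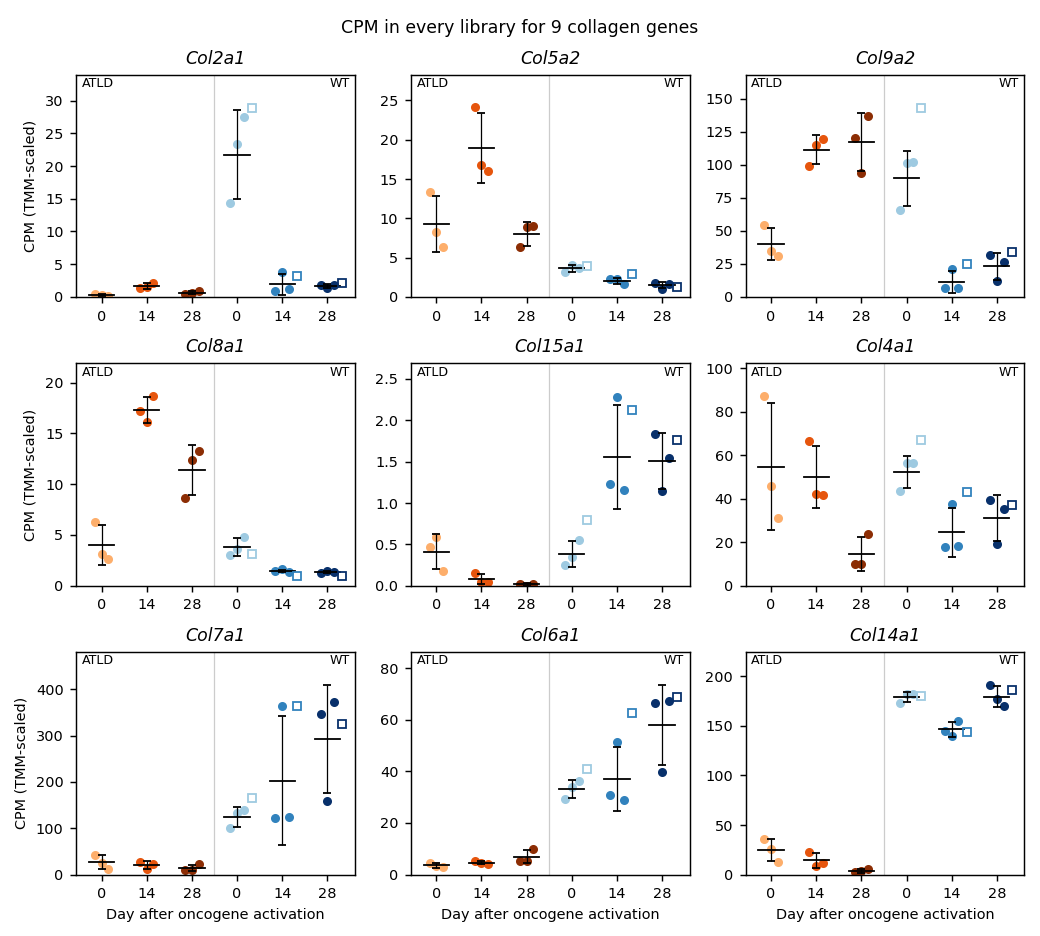
Each panel is 1 gene, with CPM on a y axis that starts at 0 and the days of ATLD (left) and WT (right) on the x axis; filled points are original libraries, lines and bars their mean and SD, and open squares the resequenced WT runs. Col5a2, Col9a2 and Col8a1 stand higher in ATLD at days 14 and 28, Col15a1 stands higher in WT at those days, and Col7a1, Col6a1 and Col14a1 stand higher in WT on each day.

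FACIT collagens were lower in ATLD organoids for 7 of 8 tested at day 0, with 0 higher, for 3 with 2 higher at day 14 and for 6 with 1 higher at day 28. Type IX collagen, which sits on type II fibrils in cartilage, is built of Col9a1, Col9a2 and Col9a3 chains, and these did not move alike. Col9a2 (chr4:121039385-121055322) had 54.2, 35.1 and 31.4 CPM in ATLD libraries at day 0, 98.8, 115 and 120 CPM at day 14, and 121, 93.7 and 137 CPM at day 28. In WT libraries Col9a2 had 65.9, 101 and 102 CPM at day 0, 6.84, 21.2 and 6.88 CPM at day 14, and 31.5, 11.8 and 26.4 CPM at day 28. ATLD libraries were below WT libraries at day 0 and above them on both later days. Col9a2 rose in ATLD by 1.47 ± 0.39 and 1.54 ± 0.40 (adjusted p = 0.020 and 0.0070) and changed in WT by -2.95 ± 0.42 and -1.95 ± 0.40 (adjusted p = 3.0e-05 and 0.0013). The changes differed by 4.42 ± 0.57 at day 14 and 3.49 ± 0.56 at day 28. Leaving out the 3 libraries low in GC-rich genes gave a WT change of Col9a2 by day 14 of -2.01 and a difference of 3.50, both called. The rise by day 14 in ATLD was lost without ATLD day 0 replicate 2 or 3 or ATLD day 14 replicate 2 or 3, at 1.38, 1.32, 1.44 and 1.41.

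Col9a3, the most abundant collagen by CPM per kb and chosen after its values were seen, had 142 to 236 CPM in ATLD day 0 libraries, 128 to 149 CPM at day 14 and 139 to 189 CPM at day 28. In WT libraries it had 277 to 389, 280 to 780 and 338 to 741 CPM. Each ATLD library lay below each WT library. The log2 difference was -1.42 ± 0.37, -2.26 ± 0.37 and -2.28 ± 0.37 (adjusted p = 0.0032, 3.1e-05 and 3.7e-05). By day 14 in WT organoids Col9a3 changed by 0.36 ± 0.34, not called, and by 1.10 ± 0.18 without the 3 libraries low in GC-rich genes (adjusted p = 9.8e-05). Tcfl5 lies on the opposite strand over 6.07% of its exon bases. Col9a1 had 10.8, 8.28 and 9.53 CPM in ATLD libraries at day 0, 10.3, 14.6 and 14.2 CPM at day 14, and 13.1, 10.8 and 12.3 CPM at day 28. In WT libraries Col9a1 had 33.1, 38.5 and 45.4 CPM at day 0, 13.3, 19.4 and 12.1 CPM at day 14, and 17.1, 12.5 and 17.9 CPM at day 28. For Col9a1 every ATLD library lay below all WT libraries at day 0 and the genotypes overlapped at days 14 and 28. In WT Col9a1 fell with time, by log2 changes of -1.38 ± 0.20 and -1.30 ± 0.20.

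Col14a1 and Col12a1, FACIT collagens that bind type I fibrils, separated from each other. Col14a1 (chr15:55307750-55520803) had 35.7, 25.8 and 12.8 CPM in ATLD libraries at day 0, 22.8, 8.83 and 11.4 CPM at day 14, and 2.41, 3.23 and 6.04 CPM at day 28. In WT libraries Col14a1 had 174, 182 and 182 CPM at day 0, 145, 140 and 155 CPM at day 14, and 191, 177 and 170 CPM at day 28. It was near constant in WT and fell in ATLD by 2.67 ± 0.38 on the log2 scale by day 28 (adjusted p = 4.4e-05). The difference between ATLD and WT was -2.86 ± 0.37, -3.35 ± 0.38 and -5.55 ± 0.41 at days 0, 14 and 28. Col12a1 had 30.6, 18.8 and 7.17 CPM in ATLD libraries at day 0, 61.0, 20.6 and 29.4 CPM at day 14, and 5.10, 7.22 and 13.1 CPM at day 28. In WT libraries Col12a1 had 59.2, 60.8 and 71.8 CPM at day 0, 14.4, 13.2 and 16.0 CPM at day 14, and 26.8, 26.3 and 23.4 CPM at day 28. Each ATLD library of Col12a1 lay below all WT libraries at days 0 and 28 and they lay above all WT libraries at day 14. Its change by day 14 differed between genotypes by 3.11 ± 0.61 (adjusted p = 0.0010). Col12a1 changed by -2.14 ± 0.44 in WT by day 14 and by -2.13 ± 0.44 in ATLD between days 28 and 14, both called. Col20a1 had 0.774, 0.474 and 0.572 CPM in ATLD libraries at day 0, 0.821, 0.698 and 0.456 CPM at day 14, and 0.410, 0.361 and 0.588 CPM at day 28. In WT libraries Col20a1 had 0.938, 0.853 and 1.503 CPM at day 0, 1.80, 2.29 and 1.54 CPM at day 14, and 2.20, 1.59 and 1.96 CPM at day 28. ATLD values of Col20a1 all lay below all WT libraries on each day. A gene on the same strand overlaps 1.54% of its exon bases.

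Beaded filament collagens were called on every day: 0 of 5 tested were higher and 5 lower in ATLD organoids at day 0, and 1 higher and 4 lower at days 14 and 28. Col6a1 (chr10:76708792-76726168), with Col6a2 and Col6a3 a chain of the common type VI microfilament, had 4.47, 3.32 and 2.82 CPM in ATLD libraries at day 0, 5.15, 4.41 and 4.22 CPM at day 14, and 5.44, 5.41 and 10.1 CPM at day 28. WT libraries had 29.2, 34.0 and 36.2 CPM at day 0, 31.01, 51.3 and 28.7 CPM at day 14, and 66.4, 39.9 and 67.3 CPM at day 28. The genotypes were separate on each day. The log2 difference of Col6a1 was -3.64 ± 0.31, -3.54 ± 0.30 and -3.45 ± 0.30, and that of Col6a2 -3.05 ± 0.40, -3.13 ± 0.39 and -3.08 ± 0.39. Col6a3 averaged 0.0867, 0.0388 and 0.0311 CPM in ATLD and 7.84, 3.86 and 6.53 CPM in WT organoids, a log2 difference of -6.33 ± 0.51 to -7.67 ± 0.60. The ATLD values of Col6a3 rest on few counts, which limits the size of that difference. Col6a2 and Col6a3 were singled out after their values were seen. Per kb, Col6a3 stood at 0.323 to 0.655 in WT group means beside 7.56 to 13.2 for Col6a1.

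The remaining type VI genes lie together on chromosome 9. Col6a4 (chr9:105989454-106096783) encodes a further type VI chain. Col6a4 had 1.03, 0.699 and 0.990 CPM in ATLD libraries at day 0, 0.266, 0.360 and 0.408 CPM at day 14, and 0.205, 0.212 and 0.235 CPM at day 28. In WT libraries Col6a4 had 5.57, 6.12 and 6.12 CPM at day 0, 4.27, 4.76 and 4.23 CPM at day 14, and 5.64, 5.01 and 6.42 CPM at day 28. The ATLD libraries of Col6a4 lay below all WT libraries on each day. It fell with time in ATLD, by log2 changes of -1.40 ± 0.20 and -2.05 ± 0.22 (adjusted p = 0.00017 and 2.1e-06), and the changes differed between genotypes by -0.97 ± 0.25 and -1.99 ± 0.27. Col6a6 had 0.215, 0.203 and 0.330 CPM in ATLD libraries at day 0, 0.177, 0.158 and 0.216 CPM at day 14 and 0.0455, 0.234 and 0.118 CPM at day 28. In WT libraries Col6a6 had 0.584, 0.735 and 0.847 CPM at day 0 and no count in any original library at days 14 and 28. Against a floor of 3 counts over the group, it was at least 34.8-fold lower at day 14 and at least 30.6-fold lower at day 28 than at day 0 in WT organoids. At day 14 it was at least 8.85-fold higher in ATLD than in WT organoids, and at day 28 at least 5.59-fold. The resequenced WT runs of those days gave 0.0201 and 0.0408 CPM.

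Of 3 short-chain network collagens, 2 rose in ATLD organoids by day 14 and by day 28, and 0 fell, while in WT organoids 2 fell by day 14 and 1 by day 28, and 0 rose. In ATLD organoids 5.18% of all genes rose and 6.49% fell by day 14, and 14.1% rose and 15.7% fell by day 28. In WT organoids 15.2% of all genes rose and 15.1% fell by day 14, and 12.3% rose and 12.4% fell by day 28. Between genotypes 0 were higher and 1 lower in ATLD at day 0, 2 and 1 at day 14, and 1 and 1 at day 28. Col8a1 (chr16:57624258-57754737) encodes a chain of type VIII collagen, a product of endothelium and of smooth muscle after injury. ATLD libraries had 6.28, 3.09 and 2.62 CPM at day 0, 17.2, 16.1 and 18.7 CPM at day 14, and 8.65, 12.4 and 13.3 CPM at day 28. WT libraries had 3.02, 3.65 and 4.83 CPM at day 0, 1.43, 1.60 and 1.37 CPM at day 14, and 1.25, 1.42 and 1.37 CPM at day 28. The genotypes overlapped at day 0 and were far apart afterwards. Col8a1 rose in ATLD by 2.11 ± 0.26 and 1.52 ± 0.26 (adjusted p = 3.2e-05 and 0.00025) and changed in WT by -1.39 ± 0.28 and -1.51 ± 0.28 (adjusted p = 0.00092 and 0.00058). The changes differed by 3.50 ± 0.38 and 3.02 ± 0.38, and ATLD stood above WT by 4.04 ± 0.31 at day 14 and 3.56 ± 0.31 at day 28.

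Col8a2 encodes the other type VIII chain. Col8a2 had 2.99, 1.47 and 1.30 CPM in ATLD libraries at day 0, 8.65, 6.80 and 7.08 CPM at day 14, and 5.89, 5.39 and 8.14 CPM at day 28. In WT libraries Col8a2 had 6.24, 7.001 and 8.43 CPM at day 0, 2.80, 4.08 and 2.44 CPM at day 14, and 5.13, 3.10 and 5.15 CPM at day 28. For Col8a2 every ATLD library lay below all WT libraries at day 0 and above them at day 14, where the difference was 0.83 ± 0.30 (adjusted p = 0.020). That call was lost in the second sequencing batch alone and with the replicate block. At day 28 the ATLD libraries lay above the original WT libraries but not above the resequenced run, at 5.72 CPM, and the difference of 0.16 ± 0.30 was not called (adjusted p = 0.66). It rose in ATLD by 1.97 ± 0.30 and 1.75 ± 0.29, and its change differed from that in WT by 3.18 ± 0.41 and 2.44 ± 0.41. Summed endothelial markers were 2.28 to 3.57 CPM in ATLD and 5.50 to 8.74 CPM in original WT libraries. In the resequenced WT runs of days 0, 14 and 28 they were 4.82, 5.36 and 7.19 CPM. Cldn5 was at 0 in every ATLD library and also in every resequenced WT run. The part of endothelial cells in the type VIII results was not tested. Col10a1 is the collagen of hypertrophic cartilage. Col10a1 had 0.0645, 0.135 and 0.154 CPM in ATLD libraries at day 0, 0.111, 0.0450 and 0.0960 CPM at day 14, and 0.0683, 0.127 and 0.0706 CPM at day 28. In WT libraries Col10a1 had 0.167, 0.0588 and 0.318 CPM at day 0, 0.183, 0.212 and 0.358 CPM at day 14, and 0.302, 0.247 and 0.380 CPM at day 28. Each ATLD library of Col10a1 lay below all WT libraries at days 14 and 28 and the genotypes overlapped at day 0. Of the cartilage markers, Chad averaged 1.54 ± 0.135, 50.4 ± 10.8 and 49.1 ± 8.61 CPM at days 0, 14 and 28 in ATLD and 1.13 ± 0.299, 29.1 ± 10.8 and 48.9 ± 13.6 CPM in WT organoids. Chad made up nearly all of the sum of the 6 markers at day 14 in ATLD, 44.0 to 62.9 of 44.8 to 63.2 CPM. Only 3 of the 6 passed the filter for the time comparisons, and Matn1 and Hapln1 had no count in ATLD at days 14 and 28. The cartilage collagens did not share 1 direction in WT by day 14: Col2a1, Col9a1 and Col9a2 fell, Col9a3 was not called, and Col11a2, a type XI chain singled out after its values were seen, rose by 1.64 ± 0.44 (adjusted p = 0.0088), or by 2.54 without the 3 libraries low in GC-rich genes.

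Of the transmembrane and other collagens, 2 of 4 tested were higher and 1 lower in ATLD organoids at day 0, 2 and 2 at day 14, and 1 and 2 at day 28. Col26a1 had 1.76, 1.78 and 1.41 CPM in ATLD libraries at day 0, 1.29, 1.33 and 0.840 CPM at day 14, and 0.114, 0.106 and 0.118 CPM at day 28. WT libraries had no count of Col26a1 in any original library at day 0, 0.0367, 0.141 and 0.0631 CPM at day 14, and 0.0696, 0.0274 and 0.0422 CPM at day 28. It was at least 71.1-fold higher in ATLD than in WT organoids at day 0, and it fell in ATLD by 3.84 ± 0.32 on the log2 scale by day 28 (adjusted p = 3.9e-07). Col28a1 is a collagen with von Willebrand factor A domains. Col28a1 had 2.495, 2.17 and 2.16 CPM in ATLD libraries at day 0, 4.70, 4.48 and 3.77 CPM at day 14, and 2.37, 2.95 and 4.16 CPM at day 28. In WT libraries Col28a1 had 1.52, 1.94 and 1.69 CPM at day 0, 1.14, 1.06 and 0.842 CPM at day 14, and 1.56, 1.62 and 1.29 CPM at day 28. ATLD values of Col28a1 all lay above all WT libraries on each day. Its change by day 14 differed between genotypes by 1.68 ± 0.28 (adjusted p = 0.00023). Col25a1 is a neuronal transmembrane collagen. Col25a1 had 0.172, 0.203 and 0.132 CPM in ATLD libraries at day 0, 0.177, 0.203 and 0.384 CPM at day 14, and 0.432, 0.403 and 0.541 CPM at day 28. In WT libraries Col25a1 had 1.38, 1.74 and 1.42 CPM at day 0, 2.33, 1.60 and 2.48 CPM at day 14, and 1.49, 0.822 and 1.39 CPM at day 28. The ATLD libraries of Col25a1 lay below all WT libraries on each day. Its log2 differences between ATLD and WT were -3.01 ± 0.32, -2.95 ± 0.30 and -1.30 ± 0.28.

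**Figure D5:**
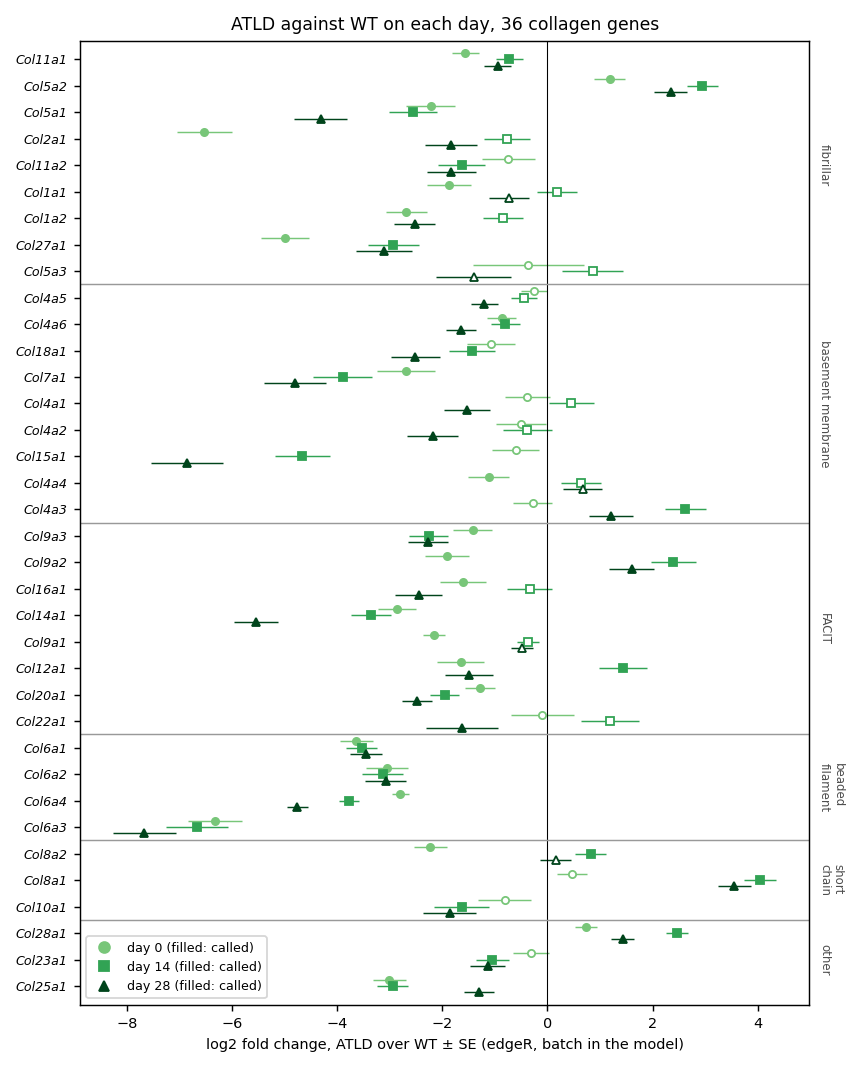
Points are log2 fold changes of ATLD over WT with SE bars at day 0 (circles), day 14 (squares) and day 28 (triangles) for 36 collagen genes sorted by class, and filled points were called; genes with a group at no count are left out. The type VI genes and Col7a1 lie far to the left on each day, and Col8a1, Col5a2 and Col28a1 to the right at days 14 and 28.

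Replicates of a group differed together across the family. In ATLD day 0, replicate 1 was the highest library for 32 and replicate 3 the lowest for 31 of the 38 tested genes with a count. In ATLD day 28, replicate 3 was the highest for 34 of 39. In WT day 14, replicate 2, which lacks the GC trend of its group, was the highest for 31 of 38, and in WT day 28, replicate 2, which has it, was the lowest for 30 of 38. The members are therefore not independent of each other within a library.

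The genes that make and bind collagen were counted in the same way. Of 20 genes for hydroxylation and folding, 6 rose and 1 fell in ATLD organoids by day 14, where 5.18% of all genes rose and 6.49% fell, and 7 rose and 4 fell by day 28, where 14.1% rose and 15.7% fell. In WT organoids 6 rose and 5 fell on either day, where 15.2% of all genes rose and 15.1% fell by day 14 and 12.3% and 12.4% by day 28. P3h2, a prolyl 3-hydroxylase that acts on type IV collagen, averaged 33.2 ± 3.14, 24.3 ± 1.17 and 32.4 ± 4.50 CPM in ATLD and 29.3 ± 0.281, 1.87 ± 0.263 and 2.33 ± 0.101 CPM in WT organoids. P4ha1, a subunit of prolyl 4-hydroxylase, averaged 20.8 ± 3.25, 34.5 ± 4.77 and 26.1 ± 0.846 CPM in ATLD and 23.8 ± 0.569, 160 ± 10.7 and 132 ± 6.15 CPM in WT organoids. The enzymes thus moved opposite ways in WT: P3h2 changed by -3.96 ± 0.14 and -3.65 ± 0.13, and P4ha1 rose by 2.75 ± 0.12 and 2.47 ± 0.12 at days 14 and 28. Creb3l1, a transcription factor of collagen secretion, averaged 9.36, 11.5 and 16.3 CPM in ATLD and 8.398, 1.25 and 1.45 CPM in WT organoids.

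Of 15 genes for procollagen processing and crosslinking 12 were tested, and the ATLD change exceeded the WT change for 6 and lay below it for 2 by day 14, where 10.8% and 10.6% of all genes did so. By day 28 the counts of that list were 2 and 3, where 13.5% and 14.0% of all genes did so. Adamts2, the protease that removes the N-propeptide of fibrillar procollagens, averaged 14.3 ± 3.63, 35.99 ± 4.25 and 32.5 ± 8.10 CPM in ATLD and 10.4 ± 0.892, 1.35 ± 0.0464 and 1.74 ± 0.0628 CPM in WT organoids. Its change differed between genotypes by 4.28 ± 0.27 at day 14 and 3.76 ± 0.27 at day 28. Of 10 collagen receptors 8 were tested, and 2, 2 and 1 were higher and 3 lower in ATLD organoids at days 0, 14 and 28, near the shares over all genes of 26.1% to 30.1% higher and 29.5% to 35.0% lower. Itga11, the alpha chain of a fibrillar collagen receptor, averaged 0.929 ± 0.263, 1.53 ± 0.604 and 1.43 ± 0.384 CPM in ATLD and 2.47 ± 0.723, 11.4 ± 2.19 and 14.5 ± 3.20 CPM in WT organoids.

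Basement membrane partners are the laminins, nidogens and other proteins of that sheet, and 13 of the 16 in the list were tested. By day 28 in ATLD organoids 0 rose and 8 fell, where 14.1% of all genes rose and 15.7% fell. Between genotypes 1 was higher on each day, and 8, 9 and 11 were lower in ATLD than in WT organoids at days 0, 14 and 28, where 29.5%, 35.0% and 34.9% of all genes were lower. Hspg2, which encodes perlecan, averaged 105 ± 78.1, 69.0 ± 36.5 and 23.0 ± 14.1 CPM in ATLD and 126 ± 31.8, 252 ± 215 and 351 ± 162 CPM in WT organoids. Pxdn, which crosslinks type IV collagen, went the other way, at 312 ± 110, 348 ± 98.1 and 159 ± 70.9 CPM in ATLD and 180 ± 8.19, 32.4 ± 3.35 and 46.8 ± 5.86 CPM in WT organoids, a log2 difference of 3.23 ± 0.31 at day 14 (adjusted p = 4.1e-08). Lama1, a laminin chain, averaged 1.497, 0.422 and 0.186 CPM in ATLD and 2.62, 1.89 and 1.98 CPM in WT organoids.

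Of 17 fibril partners 14 were tested, and by day 14 the ATLD change exceeded the WT change for 6 and lay below it for 0, where 10.8% and 10.6% of all genes did so. By day 28 it exceeded it for 4 and lay below it for 5, where 13.5% and 14.0% of all genes did so. Ogn, which encodes the small proteoglycan osteoglycin, averaged 0.836 ± 0.0666, 3.22 ± 0.371 and 7.40 ± 1.02 CPM in ATLD and 4.62 ± 0.573, 0.267 ± 0.135 and 0.306 ± 0.0935 CPM in WT organoids. Its change differed between genotypes by 6.004 ± 0.34 at day 14 and 7.07 ± 0.34 at day 28. Fbn2, a microfibril gene, averaged 89.7 ± 45.5, 94.8 ± 42.3 and 6.82 ± 3.09 CPM in ATLD and 12.7 ± 0.854, 1.09 ± 0.221 and 2.78 ± 0.419 CPM in WT organoids.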

How the data were processed

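RNA from 21 mouse mammary organoid libraries was sequenced as stranded, poly(A)-selected RNA-seq, per the labels' protocols. The authors deposited raw counts per gene with gene lengths; per the submitters' processing notes the build was mm10 and featureCounts and DESeq2 were used. The labels name no aligner, annotation release or strand setting. The members and lists were chosen with earlier results of these data known. Counts were scaled by TMM, filtered with filterByExpr (minimum count 10, total 15) and tested with edgeR 4.0.16's quasi-likelihood F test, with Benjamini-Hochberg adjustment. Changes with time and genotype by time came from 18 original libraries (18684 genes), and genotype differences from 21 libraries with a sequencing batch term (18844 genes). In the latter WT replicate 1 entered with both its runs, which are not independent cultures. Named members were those called in the most of the 11 comparisons in each class (up to 5 fibrillar, 6 basement membrane and 3 of each other class) and those called in a genotype by time comparison; other members described are said to have been chosen after their values were seen. Named companions were up to 3 of a list with the largest called changes. The fits were tested on simulated data. Same-numbered replicates showed no steady pairing over all genes, with 3 of 9 WT and 1 of 9 ATLD correlations over 0.1. The GC trend enters the WT correlations, so they cannot exclude pairing. Alternatives were size factors, filters, DESeq2, a GC offset, batch layouts, a replicate block and each library left out. The fits of change with time without the 3 WT libraries low in GC-rich genes included the resequenced WT day 14 run, without a batch term. Protein sequences were not analysed here.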

Additional observations from a re-analysis of the deposited data

Results flagged for a closer look

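The results below stood out because the change with time differed between the genotypes by the interaction test (edgeR's quasi-likelihood test, adjusted over all genes). Each value is the ATLD change minus the WT change from day 0, on the log2 scale, with 3 libraries a group. At day 14, fibrillar collagens gave 5.85 for Col2a1, 2.34 for Col1a1, 1.95 for Col1a2 and 1.87 for Col5a2. Basement membrane collagens gave 2.88 for Col4a3, 1.46 for Col4a4 and -4.25 for Col15a1. FACIT collagens gave 4.42 for Col9a2, 3.11 for Col12a1 and 1.83 for Col9a1, and short-chain collagens 3.50 for Col8a1 and 3.18 for Col8a2. The others were Col28a1 at 1.68, Col6a4 at -0.97, Col6a6 at 7.57 and Col26a1 at -5.34.

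At day 28, fibrillar collagens gave 4.67 for Col2a1, 1.08 for Col5a2 and -2.15 for Col5a1. Basement membrane collagens gave 1.63 for Col4a4, -0.95 for Col4a5, -2.17 for Col7a1 and -6.50 for Col15a1. FACIT collagens gave 3.49 for Col9a2, 1.63 for Col9a1, -1.22 for Col20a1 and -2.67 for Col14a1, and short-chain collagens 3.02 for Col8a1 and 2.44 for Col8a2. The others were Col25a1 at 1.70, Col6a4 at -1.99, Col6a6 at 7.13 and Col26a1 at -8.00. The values of Col6a6 and Col26a1 depend on the prior count, since a WT group had no count. The day 28 value of Col15a1 also rests on very few counts, in the ATLD libraries. With 1 library left out, the day 14 call of Col4a4 and the day 28 calls of Col5a2, Col5a1, Col20a1, Col4a5 and Col7a1 were lost in at least 1 case. Without the 3 libraries low in GC-rich genes the day 28 call of Col5a2 was lost, at 0.91 (adjusted p = 0.074). In that fit Col7a1, Col9a3 and Col11a2 were called lower at day 14. At day 28 Col4a1, Col4a2, Col9a3, Col11a2, Col16a1 and Col18a1 were called lower and Col4a3 higher. The day 14 values of Col6a6, Col26a1 and Col4a4 became 5.35, -6.02 and 2.10, still called.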

How the results depend on the processing

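No call of a collagen reversed in any alternative run, and 55 of 193 calls were lost in at least 1 of them. Between days 28 and 14 in WT organoids the count of collagens called was 0, and it was 1 with no filter, 1 with the GC offset and 1 with all 21 libraries and a batch term. Between days 28 and 14 in ATLD organoids 11 were called, and 7 with the replicate block. The difference between genotypes by day 28 had 17 calls, 27 with the GC offset and 12 with the replicate block. Whether the replicate numbers pair the samples was not settled by the correlations. The block gave 18 and 13 calls at days 14 and 28 in WT, and 10 and 14 in ATLD. Between genotypes it gave 26, 25 and 32 at days 0, 14 and 28, and 15 for the difference by day 14. With each library left out in turn, calls ranged over 14 to 20 and 11 to 17 at days 14 and 28 in WT, 7 to 14 and 13 to 16 in ATLD, 22 to 27, 21 to 28 and 28 to 33 between genotypes at days 0, 14 and 28, and 15 to 18 and 12 to 19 for the differences by days 14 and 28. Between days 28 and 14 they ranged over 7 to 12 in ATLD and 0 to 8 in WT, the 8 without WT day 14 replicate 2. The causes were not tested. Genes under about 1 CPM, such as Col3a1, rest on few counts, which limits them.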
